A study of Mus musculus with 12 samples.

Results

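A set of 8 liver genes around the hormone FGF21 was followed in mice with and without the nuclear receptor PPARα: the ligand gene Fgf21, its co-receptor gene Klb, the receptor genes Fgfr1, Fgfr2, Fgfr3 and Fgfr4, the transcription factor gene Creb3l3 and the stress hormone gene Gdf15. They were chosen by name. Of the 8 genes, 7 had a transcript cluster with 1 gene symbol on the array, each of them exactly 1, among 22180 genes tested in all; Gdf15 was not analysed here. Livers came from 6 female C57Bl/6 mice with a knockout of Ppara (Ppara KO) and from 6 female C57Bl/6 wild-type mice (WT), all of them adults 12 to 14 weeks old kept under a daily cycle of light and dark. Each mouse gave 1 Affymetrix MoGene 2.0 ST array, a 1-colour array on which several short probes are summarised into a log2 value per transcript cluster. The knockout allele, the litters, the time of collection and whether the mice had been fed are not given in the sources used here.

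FGF21 is a hormone that the liver secretes in fasting and in other nutrient stress. It acts on cells that carry both an FGF receptor, above all FGFR1, and β-klotho, the product of Klb, and it is known for promoting fatty acid use. PPARα, a receptor for fatty acids, is a well known activator of the Fgf21 gene in liver, and CREB3L3 (CREBH), a transcription factor held in the endoplasmic reticulum membrane until it is cut free, is known to act on Fgf21 together with PPARα. In hepatocytes β-klotho also pairs with FGFR4 to receive FGF15, the intestinal hormone of mice that restrains bile acid synthesis.

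Fgf21 mRNA was lower in Ppara KO livers, by 1.37 on the log2 scale (2.58-fold as measured, near the dim end of the array), while Fgfr1 was 1.51-fold and Fgfr2 1.27-fold higher. Klb, Fgfr3 and Fgfr4 did not pass the test, and neither did Creb3l3, although its values did not overlap between the genotypes. So 3 of the 7 measured genes were called at an adjusted p under 0.05, 1 lower and 2 higher, where 10.2% of all genes tested were called, 5.77% lower and 4.46% higher (limma, Benjamini-Hochberg over 22180 genes). The values of all 7 genes by animal and their genotype differences are plotted.

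**Figure D1:**
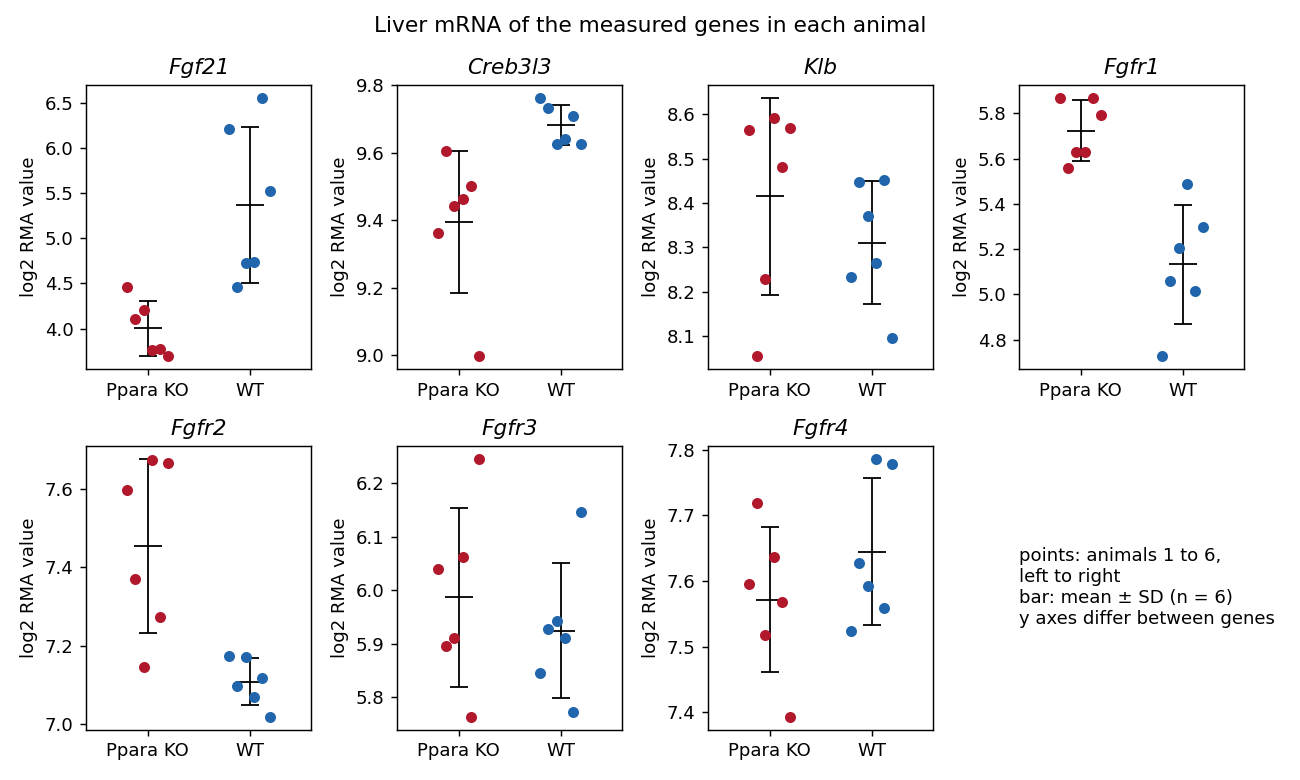
Log2 RMA values of Fgf21, Creb3l3, Klb and the 4 FGF receptor genes in each of 6 Ppara KO livers (red, left) and 6 WT livers (blue, right), with mean ± SD and a separate y axis for each gene. Fgf21 is low in all Ppara KO animals and spread out in WT, where animals 1 and 5 stand highest at 6.20 and 6.55; Fgfr1 and Creb3l3 do not overlap between the genotypes.

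**Figure D2:**
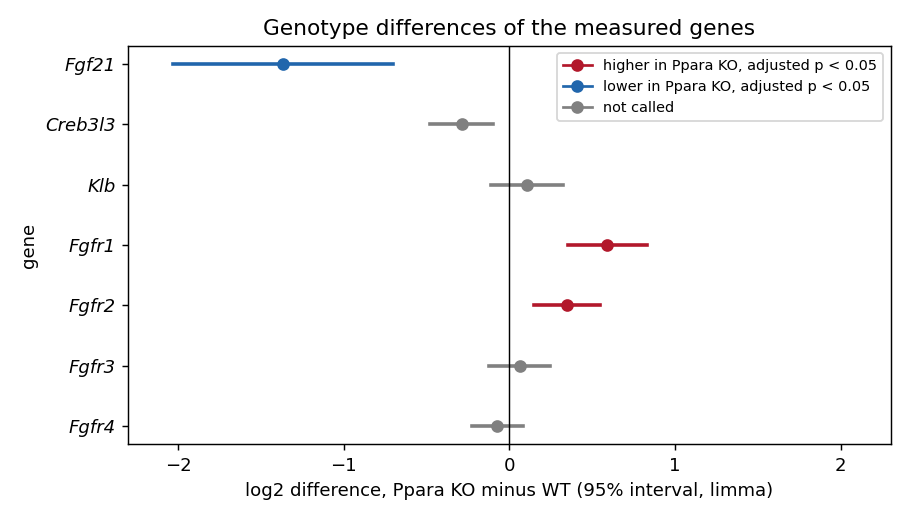
Log2 difference of Ppara KO minus WT with its 95% interval from limma for the 7 genes, coloured by the call. The interval of Fgf21 runs from -2.03 to -0.70 and that of Fgfr1 from 0.36 to 0.83, while those of Klb, Fgfr3 and Fgfr4 span 0.

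A few facts about the 12 livers touch every value. The Ppara transcript itself ran from 7.81 to 8.16 in Ppara KO and from 7.71 to 8.14 in WT (log2 values), with a difference of 0.03 ± 0.085 (SE; exact permutation p = 0.712). The position of its probes relative to the disrupted part is unknown here, and the level therefore checks nothing about the labels. Hepatocyte markers had a mean of 12.01 to 12.08 in Ppara KO and 11.99 to 12.08 in WT, and 1 of 10 was called, Cyp2e1 (0.24 ± 0.055). Pancreatic acinar markers, of interest because the exocrine pancreas is a rich source of Fgf21 mRNA, had a mean of 3.68 to 3.83 in Ppara KO and 3.56 to 3.75 in WT, and limma called 0 of 9 (1 at an unadjusted p under 0.05). Adipocyte markers were high in WT animals 1, 3 and 5: the mean of 8 markers was 4.41 to 4.66 in Ppara KO, 5.22, 5.90 and 5.85 in those 3 WT animals and 4.50, 4.55 and 4.76 in WT 2, 4 and 6. Of these 8 markers 2 fell, Lipe and Adipoq, and 1 rose, Pparg (0.70 ± 0.11). Adipoq lost its call when WT 3, or any 1 of Ppara KO 1, 2, 3 and 6, was left out, and without WT 1, 3 and 5 neither fall was called (Adipoq -0.39, Lipe -0.24). Of 6 cholangiocyte markers, whose mean was 4.02 to 4.37 in Ppara KO and 4.14 to 4.37 in WT, Sox9 (-0.39 ± 0.11) and Krt19 (-0.26 ± 0.070) fell. Of 8 macrophage markers, with a mean of 7.59 to 8.33 in Ppara KO and 7.30 to 7.71 in WT, Cd5l rose (0.45 ± 0.13). Of 7 lymphocyte markers, with a mean of 4.33 to 4.63 in Ppara KO and 4.32 to 4.60 in WT, Cd8a rose (0.46 ± 0.10). The calls of Sox9, Krt19 and Cd5l each ended without any 1 of at least 6 single animals, and the part of these cells in the results below was not tested. Limma called 0 of 10 stellate and 0 of 8 endothelial markers (4 and 3 at an unadjusted p under 0.05). Of 17 circadian clock genes measured, limma called 11 as risen and 4 as fallen. For the genes below, genotype and clock state cannot be told apart. In whole liver RNA, fewer cells of a type and less RNA per cell cannot be told apart either.

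The ligand gene, Fgf21 (transcript cluster 17490899), had log2 values of 4.46, 4.10, 4.21, 3.77, 3.77 and 3.70 in Ppara KO animals 1 to 6, against 6.20, 4.46, 4.73, 4.74, 6.55 and 5.53 in WT animals 1 to 6. All Ppara KO livers were low, and 5 of the 6 lay below the lowest WT liver; the groups met only where the highest Ppara KO animal, number 1, reached the lowest WT animal, number 2. The mean was 4.00 ± 0.31 in Ppara KO and 5.37 ± 0.87 in WT (SD, n = 6 each), with a larger spread in WT than in any other measured gene of the set. All Ppara KO values were under 4.57, the median of the mean values of all genes, and without detection calls they are not shown to be above background. The measured 2.58-fold may therefore be a lower bound. The difference was -1.37 ± 0.31 (SE), with a limma adjusted p of 0.0107 and an exact 2-sided permutation p of 0.00433. Leaving out each animal in turn kept the call, with differences from -1.55 without WT 2 to -1.13 without WT 5.

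High Fgf21 and high adipocyte markers coincided in some WT animals and not in others. WT 1 and WT 5 were high in both, WT 3 had the highest marker mean but 4.73 for Fgf21, and WT 6 had 5.53 for Fgf21 with a marker mean of 4.76. Without WT 1, 3 and 5 the difference of Fgf21 was -0.91 ± 0.22, and it was still called with 3 WT animals left (limma adjusted p = 0.0416).

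**Figure D3:**
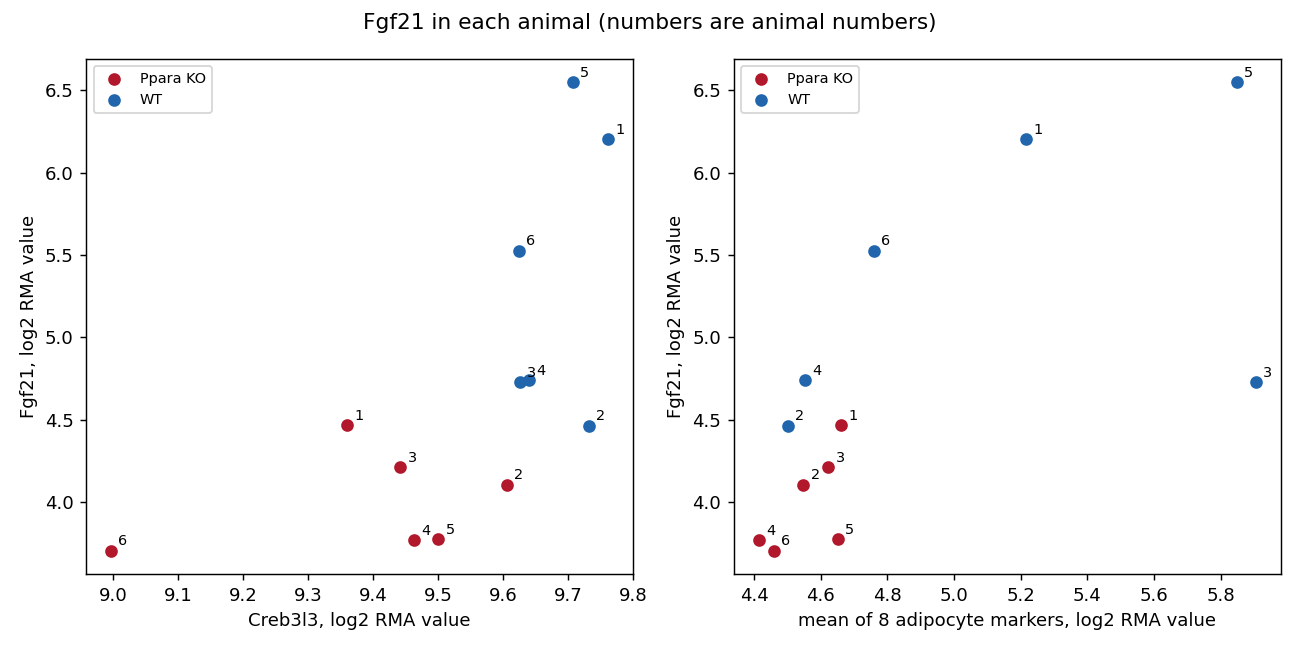
Fgf21 against Creb3l3 (left) and against the mean of 8 adipocyte markers (right), all log2 RMA values, for 6 Ppara KO livers (red) and 6 WT livers (blue) labelled with the animal number. Ppara KO animals are low for Fgf21, all at or under 4.46, with number 1 level with WT 2. The marker means of Ppara KO, 4.41 to 4.66, overlap those of WT 2 (4.50) and WT 4 (4.55). Among WT animals, number 3 combines a marker mean of 5.90 with Fgf21 at 4.73.

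The stretch just before the start of Fgf21 is shown because the gene was called and several of its known regulators bind such elements. It is the sense strand of the 250 bases before the RefSeq start, chr7:45615491-45615740 of build GRCm38.p6, minus strand, in lower case with the motif matches in capitals.
Fgf21: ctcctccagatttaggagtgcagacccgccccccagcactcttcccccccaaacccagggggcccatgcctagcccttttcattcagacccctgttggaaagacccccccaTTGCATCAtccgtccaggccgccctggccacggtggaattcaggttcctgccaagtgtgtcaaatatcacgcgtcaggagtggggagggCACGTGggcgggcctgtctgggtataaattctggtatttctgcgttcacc
The first match is TGATGCAA read on the opposite strand, the kind of element that ATF4 binds with C/EBP partners, 139 to 132 bases before the start; the second is the E-box CACGTG, 50 to 45 bases before the start, a sequence bound by clock and carbohydrate-responsive factors. Over 32851 promoters of this length in the same table, TGATGCAA occurred on either strand in 0.791% and CACGTG in 6.02%. The nuclear receptor half-site AGGTCA (14.0% of promoters), its direct repeat with a 1-base spacer (0.0335%), which PPARα and RXR can bind, and the cyclic AMP response core TGACGT (6.47%) were not found in this window of Fgf21. Only exact matches were searched, so a site that departs from these sequences would have been missed. The direct repeat was found in 11 of the 32851 promoters, so its absence here says little about binding. Sequence further out was not searched. Among the measured genes 6 had promoter entries, 8 in all, and TGATGCAA was present in that of Fgf21 alone.

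Creb3l3 (transcript cluster 17243183) had values of 9.36, 9.61, 9.44, 9.46, 9.50 and 8.998 in Ppara KO 1 to 6, against 9.76, 9.73, 9.63, 9.64, 9.71 and 9.62 in WT 1 to 6. Every Ppara KO liver lay below every WT liver, though Ppara KO 2 came close to WT 6, and Ppara KO 6 was the lowest. The groups of 6.51% of all genes did not overlap. The means were 9.40 ± 0.21 in Ppara KO and 9.68 ± 0.06 in WT (SD, n = 6 each). The difference of -0.29 ± 0.089 (SE, 95% interval -0.48 to -0.10) had a limma adjusted p of 0.0535 and so was not called. The exact permutation p was 0.00216, the smallest that 6 against 6 animals can give. Without Ppara KO 2 it was called (adjusted p = 0.0338), and without Ppara KO 6 the difference was -0.21. It was also called with a variance trend, after each renormalization and among genes no dimmer than the median gene, so its place beside the threshold depended on the setting.

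RefSeq gives 2 starts for Creb3l3, of which 1 holds a match to the motifs searched, AGGTCA, 202 to 197 bases before that start. This half-site is what PPARα and other nuclear receptors recognise, and it occurred in 14.0% of the 32851 promoters of this length. An exact match to its direct repeat with a 1-base spacer was in neither window of Creb3l3, which says little for so rare a sequence. Binding was not tested. The window with the match, before the downstream start, is shown with the match in capitals (chr10:81092592-81092841 of GRCm38.p6, minus strand).
Creb3l3: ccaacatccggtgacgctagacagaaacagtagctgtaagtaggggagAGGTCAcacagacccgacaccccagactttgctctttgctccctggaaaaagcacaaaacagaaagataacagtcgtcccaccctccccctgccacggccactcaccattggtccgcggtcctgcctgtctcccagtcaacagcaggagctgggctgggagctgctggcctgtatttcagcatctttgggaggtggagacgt

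The co-receptor gene Klb (transcript cluster 17437765) ran from 8.05 over a median of 8.52 to 8.59 in Ppara KO, against 8.09, 8.32 and 8.45 in WT. The Ppara KO values lay on both sides of WT: 4 Ppara KO animals were above the highest WT animal and Ppara KO 2 was below the lowest. The difference was 0.10 ± 0.10 (SE), with a 95% interval of -0.11 to 0.32 and a limma adjusted p of 0.607. Kl, the klotho gene whose product is the co-receptor of FGF23, was not called either (-0.07 ± 0.10). Its values of 2.89 to 3.42 were under the median gene at 4.57, so a change could have been missed.

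Fgfr1 (transcript cluster 17500108), the receptor through which FGF21 mainly signals, had values of 5.87, 5.56, 5.63, 5.63, 5.87 and 5.79 in Ppara KO 1 to 6, against 4.73, 5.06, 5.21, 5.49, 5.01 and 5.30 in WT 1 to 6. All Ppara KO values were above all WT values. The difference was 0.59 ± 0.11 (SE, limma adjusted p = 0.00294; exact permutation p = 0.00216). Without WT 1, 3 and 5, which include the lowest Fgfr1 values of the study, it was 0.44 (adjusted p = 0.0468).

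Fgfr2 (transcript cluster 17496947), a receptor best known from epithelia, had values of 7.60, 7.37, 7.15, 7.68, 7.27 and 7.67 in Ppara KO 1 to 6, while WT stayed between 7.02 and 7.17 with a median of 7.11. The WT livers lay close together and the Ppara KO livers were spread out, with 5 of 6 above the highest WT liver and Ppara KO 3 among the WT values. The difference was 0.35 ± 0.093 (SE, limma adjusted p = 0.0259; exact permutation p = 0.00649). Leaving out WT 6 or Ppara KO 1, 4 or 6 ended the call, with adjusted p-values up to 0.0601, as did leaving out WT 1, 3 and 5 (0.39, adjusted p = 0.104).

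Fgfr3 (transcript cluster 17436481) ran from 5.76 over a median of 5.98 to 6.25 in Ppara KO, against 5.77, 5.92 and 6.15 in WT. Its groups covered nearly the same range, with a difference of 0.06 ± 0.086 (SE, 95% interval -0.12 to 0.25). Fgfr4 (transcript cluster 17287590), the main FGF receptor of hepatocytes, ran from 7.39 over 7.58 to 7.72 in Ppara KO, against 7.52, 7.61 and 7.79 in WT. Its difference was -0.07 ± 0.073 (SE, 95% interval -0.23 to 0.08). Changes of Fgfr3 and Fgfr4 within these intervals cannot be told from none.

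Whether the receptor genes moved apart was tested on their log2 ratio within each array, over 10 pairs of Fgfr1 to Fgfr4 and Klb, with exact permutation p-values adjusted over the 10; these tests were added after the values had been seen. Fgfr1 gained on Fgfr4 by 0.66 ± 0.11 (SE; adjusted p = 0.0216), on Fgfr3 by 0.53 ± 0.13 (adjusted p = 0.0216) and on Klb by 0.49 ± 0.15 (adjusted p = 0.0303). Fgfr2 gained on Fgfr4 by 0.42 ± 0.13 (adjusted p = 0.0216), on Fgfr3 by 0.29 ± 0.089 (adjusted p = 0.0216) and on Klb by 0.24 ± 0.088 (adjusted p = 0.0469). Fgfr1 and Fgfr2 were not shown to differ from each other (0.24 ± 0.16, adjusted p = 0.232), nor were the 3 pairs among Fgfr3, Fgfr4 and Klb, with adjusted p-values of 0.277 to 0.749.

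The other genes of the pathway were taken from lists written from textbook knowledge. Over all genes tested, limma called 10.2%, 4.46% higher and 5.77% lower, and the groups of 6.51% did not overlap. The share called ran from 4.55% of the FGF ligands to 42.9% of the receptors and co-receptors. It was 8.33% for the adaptors and MAP kinases, 14.3% for the CREB3 family and 15% for the genes around GDF15. These 3 lie near the share over all genes and are not read as results about their lists. Of 22 FGF ligand genes Fgf21 alone was called. Limma called 0 higher (0 at an unadjusted p under 0.05), and the median difference was 0.01, as it was over all genes tested. The mean of the 22 genes was 3.91 to 4.07 in Ppara KO and 3.96 to 4.11 in WT, under the median gene at 4.57. For most of them, Fgf15 and Fgf23 included, a change could therefore have been missed. Fgf1, a ligand of all the receptors, had 8.85 ± 0.24 in Ppara KO and 8.996 ± 0.14 in WT (mean ± SD, n = 6 each) without a call, and the other hormone-like ligands, Fgf15 (0.03 ± 0.12) and Fgf23 (-0.27 ± 0.17, both difference ± SE), were not called either. Of 7 receptor and co-receptor genes 3 rose, with a median difference of 0.10: Fgfr1, Fgfr2 and Fgfrl1, a receptor-like protein without a kinase domain. Fgfrl1 had 7.19 to 7.73 in Ppara KO and 6.69 to 7.16 in WT, without overlap, and a difference of 0.48 ± 0.098 (SE, limma adjusted p = 0.00518). Without WT 1, 3 and 5, 1 of the 7 was called, Fgfr1, and Fgfrl1 had 0.48 with an adjusted p of 0.0574.

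Downstream of the receptors, 1 of 12 adaptor and MAP kinase genes was called: Plcg1, which encodes a phospholipase that FGF receptors bind, rose by 0.42 ± 0.074 (SE, adjusted p = 0.00179), with 7.13 to 7.52 in Ppara KO and 6.89 to 7.02 in WT. Among 16 feedback inhibitors and target genes of receptor signalling 4 fell and 0 rose (0 higher at an unadjusted p under 0.05 by limma), with a median difference of -0.10. They included the immediate early genes Fos (-1.24 ± 0.21, adjusted p = 0.00152) and Egr1 (-1.27 ± 0.28, adjusted p = 0.00987). The others were the Sprouty gene Spry1 (-0.50 ± 0.087, adjusted p = 0.00189) and Dusp6, an ERK phosphatase gene (-0.46 ± 0.13, adjusted p = 0.0326). Fos and Spry1 did not overlap between the genotypes, as was so for 6.51% of all genes. Fos had 4.47 to 5.04 in Ppara KO and 5.08 to 6.79 in WT, and Spry1 4.86 to 5.28 in Ppara KO and 5.38 to 5.73 in WT. The transcript clusters of Dusp6 disagreed (-0.22 with their mean, not called), and the call ended without any 1 of WT 2, 3 and 4 and Ppara KO 2 to 6. The call of Egr1 ended without WT 1, 3 and 5 (-0.90, adjusted p = 0.174), while the other 3 kept theirs in that fit. The inhibitor genes Spry2 (0.02 ± 0.064) and Spry4 (-0.10 ± 0.15) and the ETS factor gene Etv5 (-0.14 ± 0.099) were not called.

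**Figure D4:**
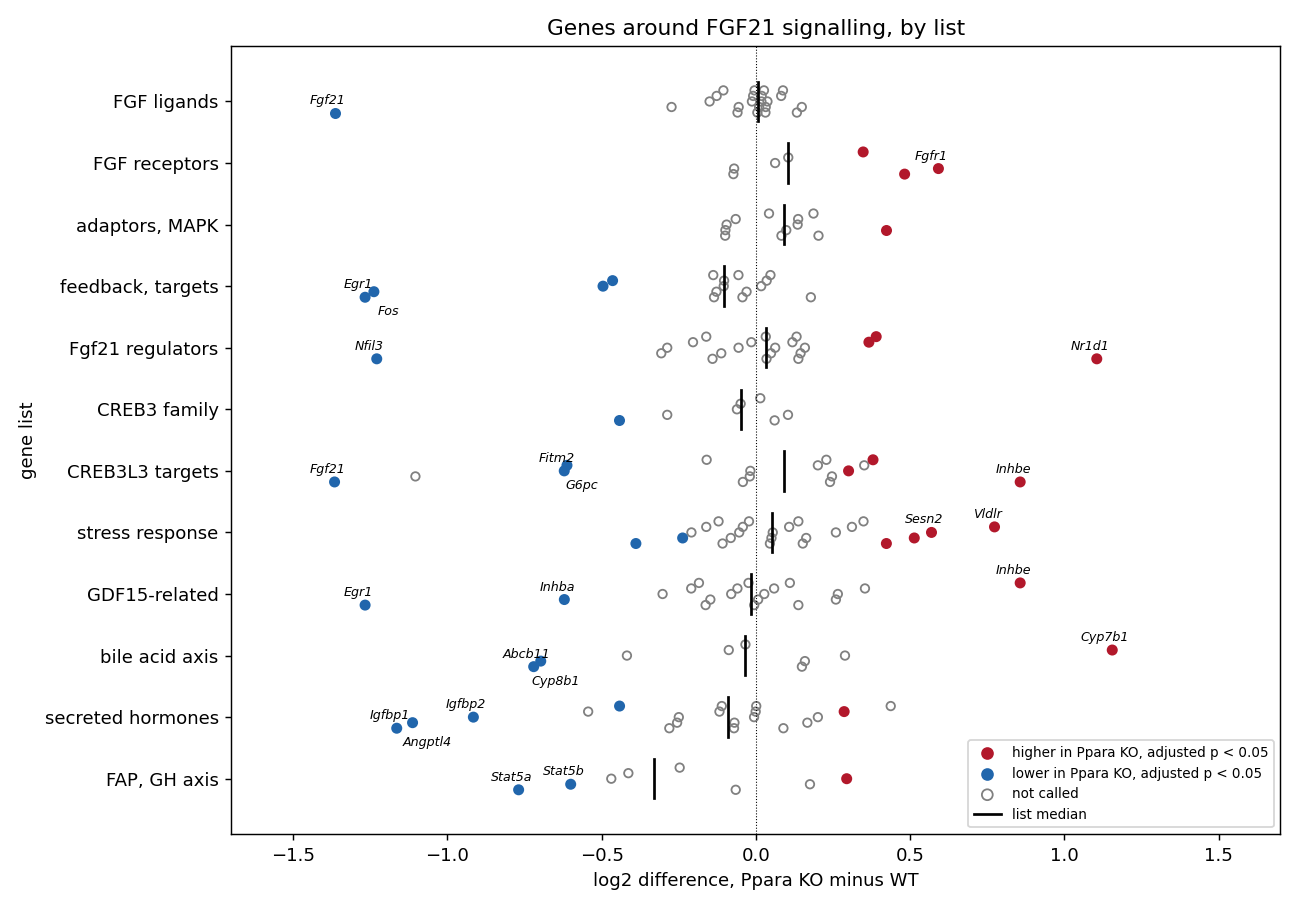
Log2 difference of Ppara KO minus WT for each measured gene of 12 lists around FGF21, 1 row per list, with called genes filled, genes that were not called open and the list median as a black line. Fgf21 is the only ligand gene called, at -1.37, among ligands that were mostly dim. Of the called genes, 3 receptor genes lie to the right, and 4 feedback and target genes lie to the left.

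Of 21 measured transcriptional regulators of Fgf21, 3 rose and 1 fell, with a median difference of 0.03. Nfil3, which encodes the repressor E4BP4, fell by 1.23 (SE 0.11, adjusted p = 6.80e-06), with 5.97 to 6.71 in Ppara KO and 7.40 to 7.73 in WT. Nr1d1, the gene of the repressor REV-ERBα, rose by 1.10 (SE 0.29, adjusted p = 0.0223). Its values overlapped, at 7.40 to 9.40 in Ppara KO and 7.31 to 8.38 in WT, and the call ended without any 1 of WT 3 and Ppara KO 1, 5 and 6. Both are clock-controlled genes. The coactivator gene Ppargc1b (0.39 ± 0.096) and Cebpb (0.37 ± 0.099), a bZIP factor gene, rose as well. The call of Cebpb ended without any 1 of WT 2, 5 and 6 and Ppara KO 2, 4 and 5. Atf4, whose product drives Fgf21 in the integrated stress response, had a difference of -0.16 ± 0.10, and Mlxipl, the gene of the carbohydrate sensor ChREBP, of -0.20 ± 0.068 (adjusted p = 0.0724). Neither was called. Mlxipl gained a call with a variance trend, with cyclic loess, among genes no dimmer than the median gene and without WT 4. Without WT 1, 3 and 5, Ppargc1b and Nfil3 were called. Nr1d1 (1.27) and Cebpb (0.38) were as large as before in that fit of 9 animals but were not called.

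In the CREB3 family and its proteases 1 of 7 genes was called, Creb3l1 (-0.44 ± 0.10, SE), and the genes of the proteases that release CREB3L3, Mbtps1 (-0.06 ± 0.064) and Mbtps2 (0.06 ± 0.088), were not. The 16 reported CREB3L3 targets split, with 3 falls and 3 rises. Those that fell were Fgf21, the lipid droplet gene Fitm2 (-0.62 ± 0.071, adjusted p = 4.71e-05) and the glucose phosphatase gene G6pc (-0.61 ± 0.17). Those that rose were Inhbe, an activin subunit gene (0.86 ± 0.14, adjusted p = 0.00115), the apolipoprotein gene Apoa4 (0.38 ± 0.10) and the gluconeogenic gene Pck1 (0.30 ± 0.086). The median difference of the list was 0.09. Inhbe, Fgf21 and Fitm2 were still called without WT 1, 3 and 5, while G6pc (-0.65), Apoa4 (0.43) and Pck1 (0.24) were not. The call of G6pc ended without any 1 of WT 1, 2, 3, 4 and 6 and Ppara KO 1 and 6. That of Apoa4 ended without WT 4 or Ppara KO 1, and that of Pck1 without any 1 of WT 1, 3 and 6 and Ppara KO 1, 2, 5 and 6. Cidec, another droplet gene known as a target and also expressed in fat, had -1.10 ± 0.42 without a call, and -0.06 without WT 1, 3 and 5. Apoa1, the main protein of HDL, had -0.02 ± 0.055.

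The integrated stress response, a route to both Fgf21 and Gdf15 that does not need PPARα, had 4 rises and 2 falls among 24 measured genes, with a median difference of 0.05. Sesn2, a stress-induced regulator of mTORC1 (0.57 ± 0.11), Vldlr, the VLDL receptor gene (0.77 ± 0.17), Trib3, a pseudokinase gene (0.51 ± 0.12), and Eif2ak3, the gene of the kinase PERK (0.42 ± 0.12), rose. Eif2ak2, the gene of the kinase PKR (-0.24 ± 0.067), and Atf5, a bZIP factor gene (-0.39 ± 0.11), fell. The call of Eif2ak3 ended without any 1 of WT 1, 2, 3 and 6 and Ppara KO 1, 3 and 6. That of Eif2ak2 ended without any 1 of WT 1, 3, 5 and 6 and Ppara KO 1, 2 and 5, and that of Atf5 without any 1 of the WT animals and Ppara KO 1, 3 and 6. In the 9 animals without WT 1, 3 and 5 the list had 1 call, Sesn2, with Trib3 at 0.57, Vldlr at 0.72, Eif2ak3 at 0.30, Eif2ak2 at -0.17 and Atf5 at -0.41. Atf4 was given above, and Ddit3, the gene of CHOP (0.14 ± 0.11), and Asns, the asparagine synthetase gene (0.35 ± 0.20, with Ppara KO 3 far above the other Ppara KO livers), were not called. Of 20 measured genes around GDF15, 1 rose, Inhbe, and 2 fell, Egr1 and Inhba (-0.62 ± 0.17), an activin subunit gene whose call ended without any 1 of WT 2, 4 and 6 and Ppara KO 3, 5 and 6. The GDF15 receptor genes Gfral (0.06 ± 0.089) and Ret (-0.01 ± 0.14) were not called. Over all 12 arrays Gfral had 2.10 to 2.60 and Ret 3.51 to 4.29. These values are under the median gene at 4.57, so a change could have been missed.

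Bile acid genes beyond FGFR4 and β-klotho had 1 rise and 2 falls among 9. Cyp7b1, an oxysterol hydroxylase gene, rose by 1.15 (SE 0.088, adjusted p = 8.80e-07). Abcb11, the bile salt export pump gene, fell by 0.72 (SE 0.13) and Cyp8b1, a sterol hydroxylase gene, by 0.70 (SE 0.16). Once WT 1, 3 and 5 were left out Cyp8b1 had -0.76 without a call. Cyp7a1, the rate-limiting enzyme that FGF15 represses, had 9.81 ± 0.57 in Ppara KO and 9.52 ± 0.96 in WT (mean ± SD, n = 6 each) and was not called. Among 20 other genes of liver-secreted hormones and binding proteins 4 fell and 1 rose, with a median difference of -0.09. The falls were Igfbp1 (-1.16 ± 0.16, SE) and Igfbp2 (-0.92 ± 0.12), whose products bind insulin-like growth factors, Angptl4, an inhibitor of lipoprotein lipase (-1.11 ± 0.22), and Fgl1 (-0.44 ± 0.11), and the rise was Lect2 (0.29 ± 0.069). Igfbp1 and Igfbp2 kept their calls without WT 1, 3 and 5 and the other 3 genes did not, with Angptl4 at -0.81, Fgl1 at -0.46 and Lect2 at 0.23. FGF21 is known to dampen growth hormone signalling in liver. Of 8 genes on that axis and of FGF21 cleavage, Stat5a (-0.77 ± 0.075) and Stat5b (-0.60 ± 0.084) fell and Ghr, the growth hormone receptor gene, rose (0.29 ± 0.064). Once WT 1, 3 and 5 were left out Ghr had 0.28 without a call, and Socs2, a suppressor of growth hormone signalling, was called at -0.77 (adjusted p = 0.00728), against -0.41 ± 0.18 without a call over all animals. Fap, the gene of the protease that cleaves FGF21, was not called (-0.25 ± 0.12).

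Across animals of 1 genotype, no correlation of Fgf21 with Creb3l3 or Atf4, or of Klb with Fgfr4, passed the adjusted threshold with 6 animals. Each of 3 pairs was tested in each genotype by exact permutation, with p-values adjusted over these 6 tests. Atf4 with Fgf21 in WT had a Pearson r of -0.86 (exact p = 0.025, adjusted p = 0.150), a Spearman rho of -0.77 (p = 0.103, adjusted p = 0.617) and r = -0.76 without the 2 animals farthest from the median of Atf4. Creb3l3 with Fgf21 had r = 0.29 in Ppara KO and 0.40 in WT (adjusted p = 0.748 and 0.594), and without the 2 animals farthest from the median of Creb3l3 r was -0.92 in Ppara KO and 0.84 in WT. Klb with Fgfr4 had r = -0.45 in Ppara KO and -0.55 in WT (both adjusted p = 0.594). After the genotype mean had been taken from each value, the genes whose pattern over the 12 arrays was most like that of Fgf21 were Samd11, Olfml2a and Ttll2 (r = 0.89, 0.88 and 0.88), none of them called between the genotypes. For Creb3l3 they were Nwd2, Unc5d and Mbd3 (r = 0.89 for each), and for Klb they were Scgb2b24, Rab1b and Fam114a1 (r = 0.95, 0.91 and 0.90). Among 17729 genes compared, 38, 34 and 36 reached r = 0.8 with Fgf21, Creb3l3 and Klb. How many unrelated genes would reach it by chance was not tested, so these counts are not shown to exceed chance. Samd11, Olfml2a, Ttll2, Unc5d and Scgb2b24 had means under the median gene at 4.57 in both genotypes. Scgb2b24 was the dimmest, at 1.61 in Ppara KO and 1.55 in WT. These correlations are a description over 12 points that share their arrays.

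**Figure D5:**
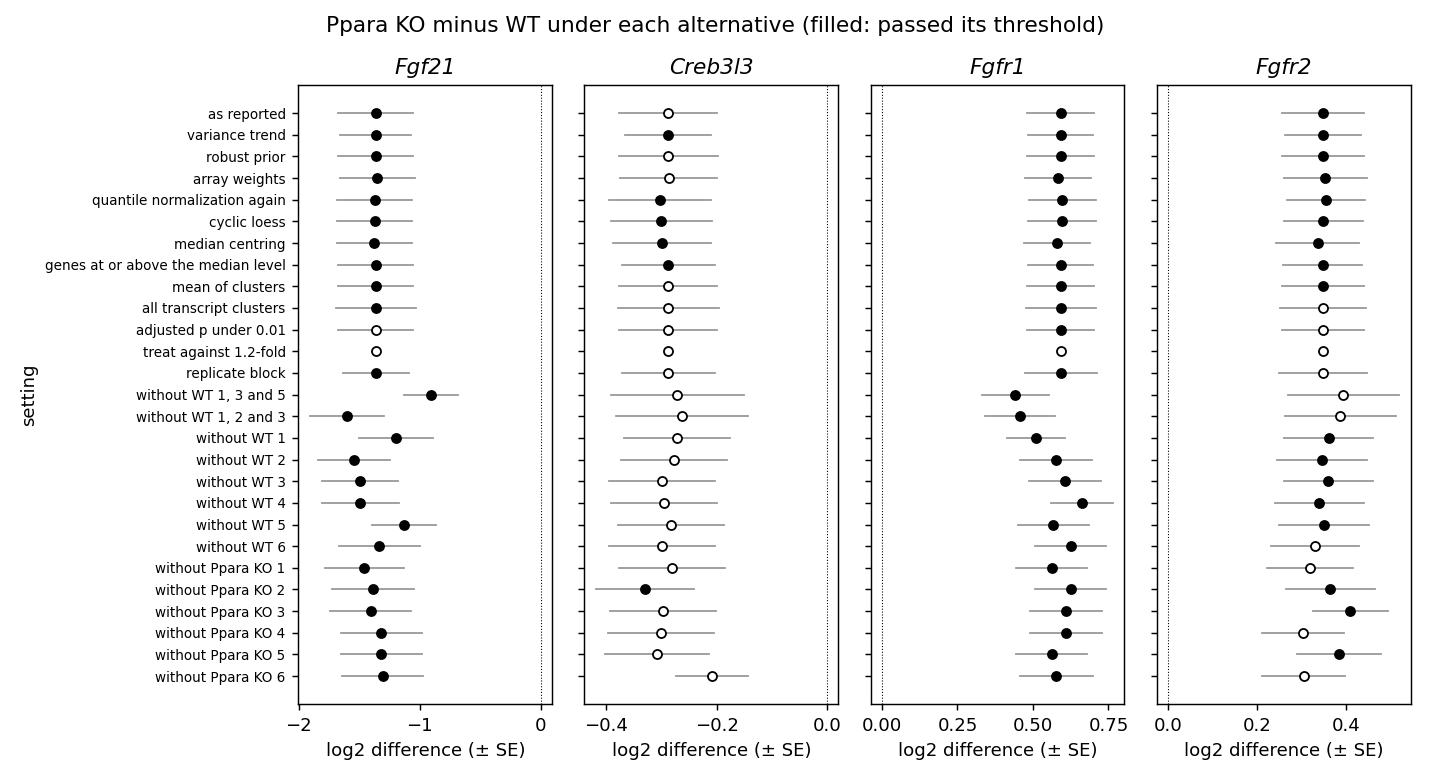
Log2 difference of Ppara KO minus WT (± SE where the fit gives it) for Fgf21, Creb3l3, Fgfr1 and Fgfr2 as reported and under 26 alternatives, with filled points where the adjusted p passed the threshold of that setting. Fgf21 and Fgfr1 are filled except under the strictest criteria, Fgfr2 loses its call in 10 settings, and Creb3l3 is filled in 6.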

How the data were processed

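Liver RNA of 6 Ppara KO and 6 WT mice was read on 1 Affymetrix array per animal. The deposited log2 values were made with RMA in Partek software, per the submitters' notes on processing; versions and settings are not given in the sources used here. RMA equalises the arrays (medians 4.13 to 4.17), so a shift shared by most genes would not show, and it compresses differences of dim genes. Of 41345 transcript clusters, 23521 had 1 symbol in the platform annotation and 23328 of these were found in RefSeq (GRCm38.p6) by Entrez identifier. The brightest cluster stood for a gene. No filter on low values was applied.

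Genes were fitted with limma 3.58.1 in R 4.3.3 (1 mean per genotype, no covariate), 2-sided, with Benjamini-Hochberg adjustment over 22180 genes and a threshold of 0.05. Differences are Ppara KO minus WT with the limma SE (median over genes 0.0926). The SE of a receptor ratio came instead from the variances of the ratio within each genotype. Exact permutation tests covered 924 assignments of animals or 720 pairings. The limma fit was tested on simulated data. The members, lists, pairs and alternatives were chosen with earlier results of these data known, and no list was tested as a set. Named were the measured genes of the set, up to 5 called and 2 uncalled members of each list, and the 3 most similar genes; further genes were named after their values were seen. Motifs were searched as exact sequences on both strands of RefSeq promoter windows. Same-numbered animals of the genotypes did not deviate together over all genes (correlations -0.05 to 0.04), and the main fit did not pair them. A weaker effect of a shared litter or collection order cannot be seen from these correlations.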

Additional observations from a re-analysis of the deposited data

Results flagged for a closer look

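In 186 groups of 6 animals, the highest or lowest animal was set against Dixon's 95% critical value for its gap to the nearest animal, which chance passes in about 5% of groups. The groups came from 93 genes in each genotype, namely the genes given above with values between the genotypes and the members of the lists that the naming rule picks, the clock list included. It was passed in 6 groups, and 0 of them belonged to the 7 measured genes of the set. Spred2, a feedback inhibitor gene of receptor signalling, was low in WT 4 at 5.93, with the next WT animal at 6.61. The clock activator gene Npas2 was high in Ppara KO 5 at 4.63, with the next at 4.23, and in WT 6 at 7.95, with the next at 7.70. The clock output gene Dbp was high in WT 2 at 7.09, with the next at 6.33, and Cry1, a clock repressor gene, was high in Ppara KO 2 at 6.84, with the next at 6.04. Asns, the asparagine synthetase gene, was high in Ppara KO 3 at 6.36, with the next at 5.15.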

How the results depend on the processing

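Fgf21 was lower in Ppara KO, and Fgfr1 and Fgfr2 higher, in all 26 alternative fits, and the differences of Klb, Fgfr4 and Creb3l3 also kept their sign. Settings that change only the test, its threshold or the genes fitted cannot move these differences. Nor can the replicate block, or the mean of clusters where a gene has only 1. Only the renormalizations, the array weights and the fits with animals left out could have turned a sign. The sign of Fgfr3 turned without WT 1, 3 and 5 (-0.0085). Leaving out each animal in turn gave -1.55 to -1.13 for Fgf21, 0.51 to 0.66 for Fgfr1, 0.30 to 0.41 for Fgfr2 and -0.33 to -0.21 for Creb3l3. At an adjusted p under 0.01 the call of Fgf21 (-1.37) and Fgfr2 (0.35) ended, leaving 1 of the 7 genes called. With treat against a 1.2-fold change the calls of Fgf21 (-1.37), Fgfr1 (0.59) and Fgfr2 (0.35) all ended, so that treat called 0 (2 at an unadjusted p under 0.05, and 4 with the plain limma test). The call of Fgfr2 also ended with all transcript clusters tested (0.35), with the replicate block (the animal numbers as a block, 0.35, adjusted p 0.0630), without WT 1, 3 and 5 (0.39) and without WT 1, 2 and 3 (0.39). Creb3l3 gained a call with a variance trend (-0.29), a second quantile normalization (-0.30), cyclic loess (-0.30), median centring (-0.30) and genes no dimmer than the median gene (-0.29). Its exact permutation p of 0.00216 (-0.29) is not adjusted over genes and is no such call. The block ended no other call among the 7 genes. Genes called over all went to 418 higher and 652 lower at an adjusted p under 0.01, 105 and 224 with treat, 390 and 618 without WT 1, 3 and 5, and 373 and 509 without WT 1, 2 and 3, against 989 and 1279 as reported; the last 2 fits have fewer animals, and otherwise the cause was not tested. Of 676 list counts under alternatives 95 were outside 1.5 times the reported count. The 676 include counts of 0 that stayed at 0, so this total hides how often single counts moved. The count of falls in the integrated stress response moved in 16 of 26 alternatives. That of falls around GDF15 moved in 10, and that of rises among the CREB3L3 targets in 9. The number of arrays limits the precision.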
